A study of Danio rerio with 39 samples.

Results

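The genes described here are the 150 genes whose mean level in zebrafish embryos was higher in irradiated than in control libraries at each of 4 dose rates of gamma radiation, by the largest margins. They were chosen on the values themselves. Counts were divided by each library's gene total and scaled to CPM, and genes with a mean of at least 5 CPM over the 20 controls were kept, which left 8704 of 32057 genes. For every dose rate, the mean log2(CPM + 0.5) of the controls was subtracted from that of the exposed libraries. Genes were then put in order by the smallest of the 4 differences, after 264 genes were set aside by symbol (ribosomal proteins, subunits of the respiratory chain, histones and zinc finger genes). The first 150 are the members. Their differences are therefore a description, and calls from tests over all genes are given beside them only as such.

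All embryos were of the AB background, were collected as entire embryos at the shield stage, and were pooled before RNA extraction. Exposed embryos received continuous external gamma radiation from a caesium source at 0.005, 0.05, 0.5 or 5 mGy/h, and controls received none. Each dose rate was irradiated in a batch of its own with its own controls, so dose rate and batch cannot be told apart. The batch at 0.005 mGy/h had 3 exposed libraries and 4 controls. The next, at 0.05 mGy/h, had 4 of each kind, and the batches of the 2 higher dose rates had 6 of each, so that there were 39 libraries. A library is a pool of whole embryos, so fewer cells of a type and less RNA per cell cannot be told apart.

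The shield is the dorsal thickening that marks the start of gastrulation in the zebrafish. By then the embryo reads its own genome, clears maternal RNA, feeds on yolk and sets up its axes through opposing Wnt, Nodal, BMP and retinoic acid signals. Ionising radiation breaks DNA, and many vertebrate cells then switch on genes such as cdkn1a, mdm2 and ccng1. Many of the 150 genes belong to other processes, among them protein degradation, translation in mitochondria and secretion.

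The libraries held between 9845688 and 57169053 counts on genes (median 25507778). The multimapped share of reads was 14.8% to 18.1% in 38 libraries and 35.7% in exposed replicate 3 of the 0.05 mGy/h batch. Control replicate 1 of the 0.005 mGy/h batch stood apart in the members themselves, with a mean log2(CPM + 0.5) of 5.21 against 4.75 to 4.84 in the other 3 controls. The median level of the members in controls was 24.9 CPM, close to the 27.5 CPM of all genes kept. Their levels spanned 5.03 CPM to 5110 CPM, and 22.7% of them lay under 10 CPM against 20.7% of all genes kept. Libraries held markers of mesoderm, endoderm, ectoderm and the enveloping layer, for instance tbxta at 687 CPM and krt4 at 1640 CPM in controls, while hbae3 of later blood cells had 0.0523 CPM and GFAP of later glia 0.0559 CPM.

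The margins were small. The largest of the 150 smallest differences was 0.17 on the log2 scale, a level 12.6% higher, and the median one was 0.06, or 4.38%. The last member stood at 0.04, or 2.5%. For 149 of the 150 genes the smallest difference was below that gene's standard deviation among controls, pooled within the 4 batches. The median of this standard deviation over the members was 0.20. The exception was NIPSNAP1, a mitochondrial matrix protein, with 0.15 against a standard deviation of 0.14.

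Medians of the members' differences were 0.15, 0.09, 0.12 and 0.17 from the lowest to the highest dose rate. Over all genes kept the medians were -0.12, -0.01, -0.00 and -0.09 in that order. Most genes were thus lower in exposed libraries at both ends of the dose rate range, where 28.5% of genes at 0.005 mGy/h and 36.4% at 5 mGy/h had a difference above 0. With library sizes scaled by TMM (a trimmed mean of the ratios between libraries), these 2 shares became 50.0% and 52.9% and the members' medians 0.29 and 0.28. The median of all genes at 0.005 mGy/h moved by more than 0.1 under this scaling, to 0.00, and 150 members stayed above 0 there. At 0.5 mGy/h 149 did. The smallest difference was the one at 0.05 mGy/h in 55 members and the one at 0.5 mGy/h in 47, whereas it was that of the lowest dose rate in 19 and of the highest in 29. Members with the widest differences were ENSDARG00000097082 at 0.005 mGy/h (0.66), NIPSNAP1 at 0.05 mGy/h (0.38), uox at 0.5 mGy/h (0.87) and fkbp11 at 5 mGy/h (0.70).

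**Figure D1:**
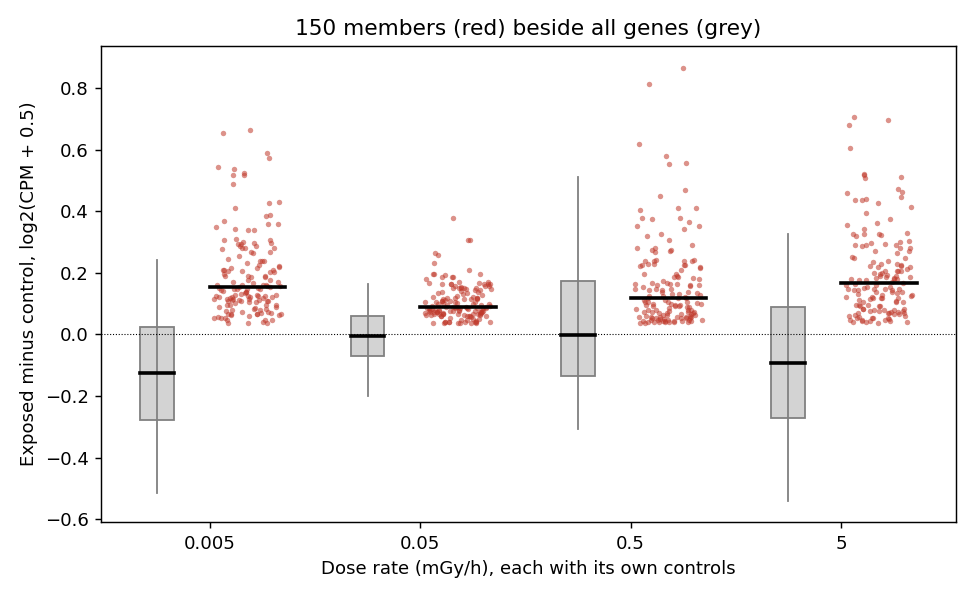
Exposed minus control on the log2(CPM + 0.5) scale (vertical axis) at each dose rate in mGy/h (horizontal axis). Red points are the 150 members, which the rule places above 0. Grey boxes span the 25th to 75th percentile of the 8704 genes kept, grey lines the 5th to 95th, and black bars are medians. The members' medians lie between 0.09 and 0.17, and their points at 0.05 mGy/h are the most tightly packed.

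At the edge of the rule the genes differed little. The last 3 members were SLC10A3, prdm1b and zgc:171772, each with a smallest difference of 0.04. Just outside stood SLC12A1 (0.04), EEF1D (0.04) and MRPL57 (0.03).

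In all, 370 of the 8704 genes were higher in the mean at every dose rate, or 4.25%, and 309 remained after the symbols were set aside. Of the genes set aside, 37 had a smallest difference at or above that of the last member. These were 20 of 86 ribosomal protein genes, 10 of 41 nduf genes, 4 of 18 cox genes and 3 of 19 atp5 genes, with none of 88 znf genes.

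Chosen this way, members need not be separated library by library. Exposed libraries lay wholly above controls for 15 members at 0.005 mGy/h, where 2.73% of all genes kept did so, and for 5 members at 0.05 mGy/h, where 0.276% did. There were 4 such members at 0.5 mGy/h against a background of 4.66% of genes, and 16 at 5 mGy/h against 2.47%. The rule used these contrasts. Of the 8704 genes kept, members included, 7847 overlapped at every dose rate, 831 were free of overlap at 1 dose rate and 26 at 2. For 114 of the 150 members the groups overlapped at every dose rate, 32 were free of overlap at 1 dose rate and 4 at 2, and no member at 3 or more. Those 4 were fkbp11, SSR1, degs1 and BHMT, each at 0.005 and 5 mGy/h.

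The edgeR quasi-likelihood test was fitted over all genes of each batch, with Benjamini-Hochberg adjustment and calls at an adjusted p under 0.01 and a fold change of at least 1.5. The members were chosen for their differences in these libraries, so their calls follow in part from the choice and are given as a description. At 0.005 mGy/h 0.0% of 13935 genes were called higher and at 0.05 mGy/h 0.0% of 15814. An unadjusted p under 0.05 was found for 732 higher genes (5.25%) and 729 lower ones at 0.005 mGy/h, with 51 members (34.0%) among the higher, and for 89 (0.563%) and 128 genes at 0.05 mGy/h, with 2 members. At 0.5 mGy/h edgeR called 0.416% of 14906 genes higher and 0 members. There 29 members (19.3%) were higher with an unadjusted p under 0.05, as were 14.9% of all genes tested. A further 1565 genes were lower with such a p. At 5 mGy/h 0.353% of 15015 genes were called higher, 4 members among them, including FABP1, GREB1 and fkbp11. There 79 members (52.7%) and 12.5% of all genes tested were higher with an unadjusted p under 0.05, and 2293 genes were lower. DESeq2 called 21 genes higher at 0.005 mGy/h (0.167%), fkbp11 and ENSDARG00000097082 among them, and none of 25272 at 0.05 mGy/h, where it called 2 lower. It called 3 members at 0.5 mGy/h (FABP1, SPCS1 and uox), where 2.69% of genes were called higher, and 10 at 5 mGy/h, where 1.27% were. No member was called lower by either tool, which the choice of genes higher in every batch largely fixed in advance. Of all genes tested at 5 mGy/h, edgeR called 27 of 15015 lower and DESeq2 122 of 11243. With edgeR no member was called higher at more than 1 dose rate, whereas DESeq2 called fkbp11 at 0.005 and 5 mGy/h and FABP1 at 0.5 and 5 mGy/h. The edgeR count of 4 at 5 mGy/h depended on single libraries of the 5 mGy/h batch, as it was 0 without control replicate 3 or 5 or exposed replicate 3, 4 or 5, 1 without control replicate 4 or 6 or exposed replicate 1, 2 without control replicate 1, and 7 to 9 without exposed replicate 6, exposed replicate 2 or control replicate 2. All genes called at 5 mGy/h, in either direction, also moved with these omissions. They numbered 80 with every library, 12 without exposed replicate 4 and 250 without control replicate 2. The count of members over all 4 dose rates, likewise 4 with every library, was 7 without exposed replicate 3 at 0.5 mGy/h. Without that library all genes called at 0.5 mGy/h numbered 340, against 62 with every library. Each batch was fitted alone, so the calls at 5 mGy/h did not change there. With the 31 libraries that the study kept after clustering, edgeR called 4 members at 0.5 mGy/h, where 2.19% of 15144 genes were called higher, and 26 at 5 mGy/h, where 3.27% of 14529 were, or 29 genes in all.

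A part of the design that the rule does not fix is whether genes chosen on 3 batches are also higher in the batch left out. Of the 150 genes chosen without the 0.005 mGy/h batch, 91 were higher in it, or 60.7% against 28.4% of all genes, with a median difference of 0.04 against -0.12. Of those chosen without the 0.05 mGy/h batch, 102 were higher there, or 68.0% against 47.2%, and the medians were 0.06 and -0.01. At the 2 higher dose rates this was not seen. Of the genes chosen without 0.5 mGy/h, 58 were higher in that batch, 38.7% against 50.1%, and the median was -0.06 against 0.00. Of those chosen without 5 mGy/h, 60 were higher, 40.0% against 37.5%, with medians of -0.07 and -0.08. Between 49 and 84 of each 150 were also members. With TMM sizes the shares were 77.3% against 49.9% at 0.005 mGy/h and 72.0% against 53.1% at 0.05 mGy/h. They were 38.7% against 43.7% at 0.5 mGy/h and 44.7% against 54.2% at 5 mGy/h, below those of all genes.

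The counts on gene totals also moved with the libraries. For 0.005 mGy/h the count was 55 without its exposed replicate 4, or 36.7% against 23.7% of all genes. For 5 mGy/h it was 32 (21.3%) without exposed replicate 3 or control replicate 1 of the 0.005 mGy/h batch, against 37.5% and 37.3% of all genes, and 92 (61.3% against 37.4%) without control replicate 3 of the 0.05 mGy/h batch. Over the 31 libraries kept by the study the share higher was above that of all genes in each batch left out. It was 83.3% against 28.3% at 0.005 mGy/h, 82.7% at 0.05 mGy/h, where the median difference was 0.18 against -0.11 for all genes, 56.7% against 47.2% at 0.5 mGy/h and 80.7% against 35.0% at 5 mGy/h. At 0.5 mGy/h this turned the direction seen with 39 libraries. These 31 libraries were selected by their expression.

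**Figure D2:**
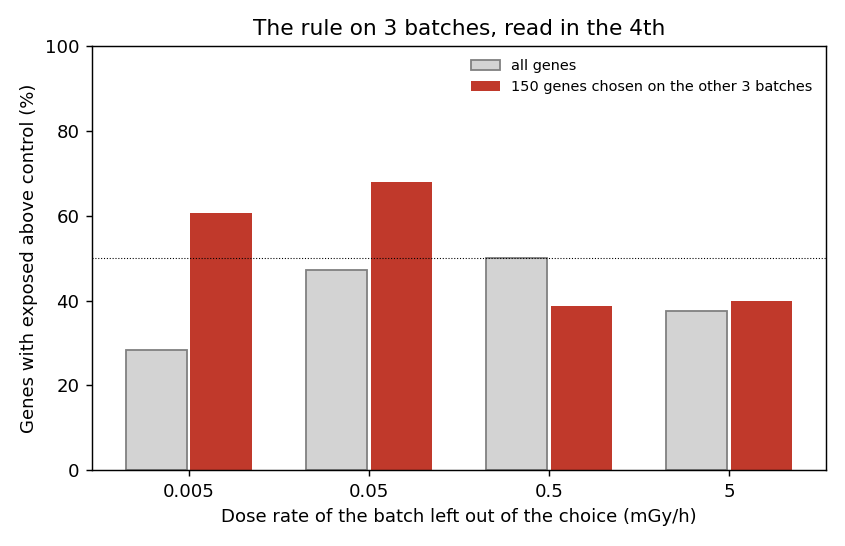
Percentage of genes with exposed above control (vertical axis) in the batch that took no part in the choice (horizontal axis, dose rate in mGy/h). Red bars are the 150 genes chosen on the other 3 batches and grey bars all genes kept. The red bar is above the grey one at 0.005 mGy/h (60.7% against 28.4%) and 0.05 mGy/h (68.0% against 47.2%), below it at 0.5 mGy/h (38.7% against 50.1%) and near it at 5 mGy/h (40.0% against 37.5%). Bars are on gene totals, and with TMM sizes the share at 5 mGy/h was 44.7% against 54.2%.

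Averaged over the 150 genes, every library has a level. At 5 mGy/h the 6 exposed libraries lay between 5.06 and 5.21 and the 6 controls between 4.81 and 5.00. In the 0.5 mGy/h batch exposed libraries spanned 5.06 to 5.37 and controls 4.98 to 5.08, with only exposed replicate 3 inside the range of the controls. In the 0.05 mGy/h batch the exposed libraries had 5.28, 5.21, 5.19 and 5.06 and the controls 5.03, 5.05, 5.06 and 5.16. The groups overlapped in this batch, because exposed replicate 4 was below 2 of the controls. In the 0.005 mGy/h batch the exposed libraries had 5.10, 4.88 and 5.29 and the controls 5.21, 4.84, 4.75 and 4.78. Control replicate 1 was thus above all but 1 of the exposed libraries. The median difference of the members at 0.005 mGy/h, 0.15 with all libraries, was 0.29 without it and 0.29 without exposed replicate 3. Without exposed replicate 4 it was 0.07, and 100 of the 150 members were then higher.

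**Figure D3:**
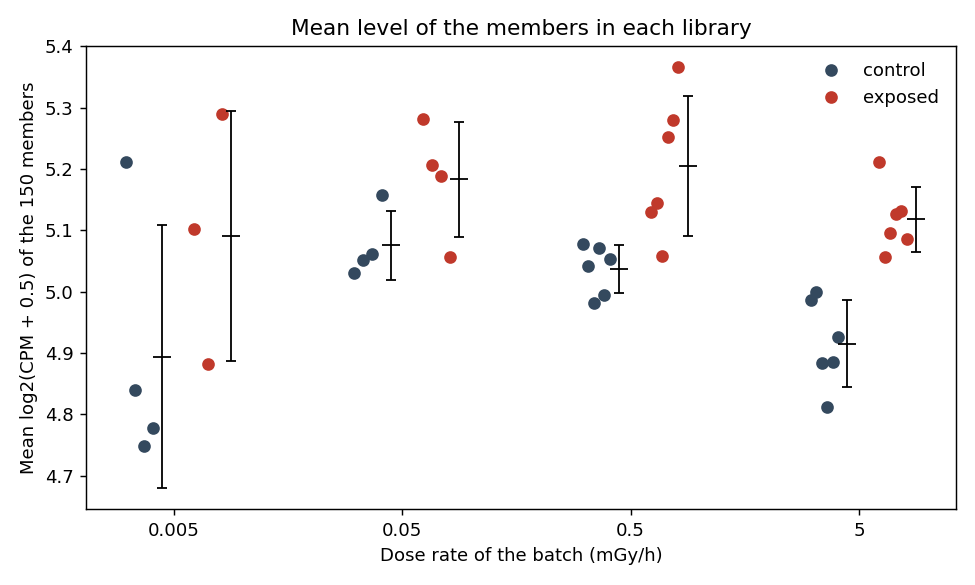
Mean log2(CPM + 0.5) of the 150 members in each library (vertical axis) by the dose rate of the batch in mGy/h (horizontal axis). Dark points are controls, red points exposed libraries, and black marks the mean with the SD between libraries. Groups are apart at 5 mGy/h (5.06 to 5.21 against 4.81 to 5.00), and at 0.005 mGy/h 1 control at 5.21 lies among the exposed libraries.

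By the known role of their products, 92 of the 150 genes were placed in 9 groups after their values were seen. Proteins are marked for destruction with ubiquitin and cut up by the proteasome, a barrel of alpha and beta subunits capped by a regulatory particle. Of 45 proteasome genes kept, 7 were members (15.6%, where 1.72% of all genes kept were), and 14 were higher in the mean at every dose rate (31.1% against 4.25%). The members are PSMA6 and PSMA8 of the alpha ring, PSMB2 of the beta ring, the cap ATPases PSMC2 and PSMC6, and the cap subunits PSMD6 and PSMD13. Over the 45 genes the median difference was 0.10, 0.04, 0.03 and 0.13 from the lowest to the highest dose rate. Of the 52 proteasome genes tested by edgeR at 0.5 mGy/h, 1 was called higher, where 0.416% of all genes were. None was called at the other dose rates.

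PSMD13, at 96.6 CPM in controls, was the proteasome gene with the largest margin, 0.13. At 0.005 mGy/h its exposed libraries had 89.8, 76.8 and 70.2 CPM and its controls 92.7, 68.1, 61.3 and 58.5 CPM. At 0.05 mGy/h they had 110, 104, 103 and 95.2 CPM against 102, 90.8, 89.1 and 88.9 CPM. In both batches a single control reached the exposed levels. Exposed libraries at 0.5 mGy/h ran from 116 CPM over a median of 130 CPM to 153 CPM, and controls from 104 over 121 to 131 CPM. Those at 5 mGy/h ran from 92.6 over 103 to 119 CPM and their controls from 82.2 over 98.2 to 105 CPM, so the groups overlapped throughout.

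PSMD6 had differences between 0.09 and 0.18 and PSMA6 between 0.06 and 0.30. Of the PSMA6 reads, 12.5% were on the other strand, a share found above 10% in 1.84% of genes. Other members of the group serve the attachment of ubiquitin or of a protein like it. They include the F-box protein FBXO42 and RNF7, the RING subunit of cullin ligases. Also here are UBE2M, which passes on the ubiquitin-like protein NEDD8, and ube2ib, which passes on SUMO. Medians over the 16 genes of this group were 0.17, 0.06, 0.10 and 0.18 from the lowest to the highest dose rate. Of 36 genes kept in a list of ubiquitin conjugation, UBE2M and ube2ib were the only members (5.56%). Over these 36 genes the median difference was -0.20, 0.01, 0.02 and -0.11 in that order.

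Mitochondria make a few subunits of the respiratory chain on ribosomes of their own, whose proteins are encoded in the nucleus. Of 62 such ribosomal protein genes kept, 6 were members (9.68%) and 10 were higher in the mean at every dose rate (16.1%). The members are MRPL12, MRPL21, MRPL22, MRPL24 and MRPL27 of the large subunit and mrps6 of the small one. The median over the 62 genes was 0.07, 0.06, 0.01 and 0.06 from the lowest to the highest dose rate. None of them was called by edgeR, where at most 0.416% of all genes were called higher at any dose rate.

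MRPL21 had the third margin of all, with differences of 0.20, 0.20 and 0.20 at the 3 lower dose rates and 0.16 at 5 mGy/h. Its exposed libraries had 28.1, 19.7 and 19.1 CPM at 0.005 mGy/h and its controls 27.4, 18.4, 17.1 and 15.4 CPM. At 0.05 mGy/h they had 47.1, 46.5, 45.0 and 44.8 CPM against 45.9, 41.2, 36.8 and 36.7 CPM, and 1 control lay among the exposed libraries. Exposed libraries at 5 mGy/h ran from 33.8 over 34.8 to 44.6 CPM and controls from 29.7 over 33.2 to 35.1 CPM. The highest of these exposed libraries, replicate 1, stood well above the next at 37.3 CPM.

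NIPSNAP1 was the member with no overlap at 0.05 mGy/h that ranked highest. There its exposed libraries had 79.3, 65.2, 61.7 and 58.2 CPM and its controls 52.5, 51.4, 50.5 and 47.3 CPM. Exposed libraries at 0.005 mGy/h had 76.2, 70.0 and 54.3 CPM and controls 60.6, 56.7, 55.9 and 45.7 CPM. The groups overlapped there and at both higher dose rates. Further members of mitochondria are TIMM9, a chaperone of the intermembrane space, COQ6 of ubiquinone synthesis, SURF1 of complex IV assembly, lyrm4 of iron-sulphur cluster assembly, GATC of glutamine charging and mtrf1, a release factor. Of 30 genes kept in a list of mitochondrial import and assembly, TIMM9 alone was a member (3.33%). The medians over these 30 genes were -0.065, 0.013, -0.102 and -0.057 from the lowest to the highest dose rate. Medians over the 13 members of mitochondria were 0.20, 0.17, 0.17 and 0.15, so on gene totals this group had its lowest median at the highest dose rate. This order may change with the scaling. With TMM sizes the median of all 150 members was 0.28 at 5 mGy/h (0.17 on gene totals) and 0.08 at 0.5 mGy/h (0.12).

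Proteins bound for the membrane or the outside enter the endoplasmic reticulum, where they are cut, folded and checked, and 12 members act on this route. The signal recognition particle receptor subunit srprb, the translocon-associated proteins SSR1 and SSR3 and the signal peptidase subunit SPCS1 serve entry, and the prolyl isomerases fkbp11 and FKBP9, the disulphide isomerase agr1 and the mannosidase EDEM3 serve folding and control. Medians over the 12 genes were 0.14, 0.08, 0.10 and 0.30 from the lowest to the highest dose rate.

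In fkbp11 the groups were apart at the lowest and the highest dose rate. Its exposed libraries had 16.5, 11.1 and 10.3 CPM at 0.005 mGy/h and its controls 8.27, 8.20, 7.34 and 6.96 CPM. Exposed libraries at 5 mGy/h ran from 8.46 over 10.6 to 13.5 CPM and controls from 4.99 over 6.23 to 7.66 CPM. In between, the differences were 0.12 and 0.11 and the groups overlapped, with exposed libraries from 4.06 to 5.06 CPM at 0.05 mGy/h and from 5.72 to 8.28 CPM at 0.5 mGy/h. Its controls at these dose rates had 3.51 to 4.74 CPM and 5.37 to 7.70 CPM.

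SSR1 was apart at the same dose rates. Its exposed libraries at 0.005 mGy/h had 454, 423 and 356 CPM and controls 347, 331, 311 and 295 CPM, and at 5 mGy/h exposed libraries ran from 205 over 224 to 257 CPM and controls from 167 over 175 to 194 CPM. Differences at the 2 dose rates between were 0.06 and 0.08. SPCS1 was apart at 0.5 mGy/h alone, where exposed libraries ran from 20.8 over 22.8 to 24.7 CPM and controls had 13.2 ± 3.84 CPM (mean and SD, n = 6). Its level also differed between batches, as controls at 0.005 mGy/h held only 1.69 to 5.66 CPM.

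The 2 genes at the head of the list belong to this route. NUCB2, a calcium-binding secreted protein, was near the filter with 5.03 CPM in controls, and its smallest difference was 0.17 at 0.05 mGy/h. There its exposed libraries had 6.96, 4.59, 3.43 and 3.05 CPM and its controls 5.62, 3.90, 3.78 and 2.36 CPM, which overlap nearly in full. Over the 31 libraries kept by the study this difference was -0.11, so NUCB2 was not higher at every dose rate there.

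For agr1, of the anterior gradient family, differences were 0.36, 0.17, 0.35 and 0.30. Exposed libraries at 0.5 mGy/h ran from 30.6 over 35.0 to 38.8 CPM and controls from 21.8 over 26.6 to 33.6 CPM. Those at 5 mGy/h ran from 28.6 over 33.4 to 40.8 CPM against 22.8 over 27.9 to 32.4 CPM. Both pairs of groups overlapped at their edges. In the lowest batch exposed libraries had 19.3, 13.4 and 7.77 CPM and controls 23.3, 7.91, 6.96 and 6.96 CPM. The control with 23.3 CPM is replicate 1, the library whose members were high.

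Yolk lipids reach the embryo as lipoproteins made by the yolk syncytial layer, the skin of nuclei over the yolk. Among the members are the apolipoproteins apoeb, apoc2 and apoa2, both genes named afp4, the phospholipid transfer protein PLTP and the fatty acid binder FABP1. Enzymes of lipid synthesis (GPAT4, MBOAT1, degs1) and the lipid droplet protein plin3 complete the 11 genes. Their medians were 0.12, 0.08, 0.14 and 0.33 from the lowest to the highest dose rate. In RefSeq's gene order (assembly GRCz12tu), apoa2 and apoc2 are next to each other, the only such pair among the 133 members found there. The 2 afp4 genes have different identifiers (ENSDARG00000041490 and ENSDARG00000095863), and reads that map to both were not counted, so their shares are uncertain.

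With 5110 CPM in controls, apoeb took the largest share of counts among the members, a share that is not corrected for gene length. Exposed libraries at 0.5 mGy/h ran from 5240 over 5660 to 6230 CPM and controls from 4850 over 5140 to 5260 CPM. The values at 5 mGy/h were 4870 over 5400 to 5970 CPM and 4480 over 4820 to 5180 CPM. In each case the lowest exposed library fell inside the range of the controls, and the differences were 0.12, 0.07, 0.16 and 0.16.

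FABP1 was called higher at 5 mGy/h, where exposed libraries ran from 15.0 over 18.4 to 23.8 CPM and controls from 8.67 over 11.2 to 13.9 CPM. The 0.5 mGy/h groups ran from 13.8 over 18.1 to 25.3 CPM and from 9.83 over 11.3 to 15.5 CPM. Its differences were 0.55, 0.09, 0.62 and 0.68, so only the batch at 0.05 mGy/h held it low in the order. In that batch exposed libraries had 19.5, 16.8, 16.7 and 12.6 CPM and controls 19.8, 14.2, 13.9 and 13.8 CPM.

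Of 4 marker genes of the yolk syncytial layer (mxtx2, apoa4b.2, apobb.1 and SLC26A1), 3 were higher in the mean at 0.05 mGy/h and 2 at each other dose rate. Their summed level was 160 to 185 CPM in exposed libraries and 75.4 to 160 CPM in controls at 0.5 mGy/h, and 74.9 to 116 CPM and 104 to 155 CPM at 5 mGy/h. At 0.05 mGy/h it was 102 to 133 CPM and 61.1 to 147 CPM, and at 0.005 mGy/h 20.4 to 34.1 CPM and 20.8 to 37.2 CPM. None of the 4 is at 0. The median of the sum was higher in exposed libraries at 0.5 mGy/h (171 against 135 CPM) and lower at 5 mGy/h (101 against 128 CPM). Most of the sum is SLC26A1, with 90.0 CPM in controls and differences of 0.45 and -0.52 at these dose rates. The lipoprotein genes apoa4b.2 and apobb.1 differed by 0.19 and 0.32 at 5 mGy/h, and by -0.06 and 1.07 at 0.5 mGy/h. The part of the layer in the lipid members was not tested.

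The lysosome is represented by 5 members, among them the protease ctsla, the fucosidase FUCA1, the thiol reductase ifi30a and the proton pump subunit ATP6V1A. For ifi30a the difference was 0.14 or more in every batch. At 0.05 mGy/h exposed libraries had 146, 146, 139 and 133 CPM and controls 135, 127, 123 and 112 CPM, so 1 control exceeded 1 exposed library. Cathepsin L, encoded by ctsla, is a lysosomal protease, at 4730 CPM in controls. Its differences were 0.12, 0.12, 0.10 and 0.15.

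Among the genes of patterning, 8 were members. CYP26A1 degrades retinoic acid and so keeps it from the head side of the embryo. At 5 mGy/h its exposed libraries ran from 98.6 over 103 to 107 CPM and its controls from 68.2 over 74.4 to 81.8 CPM, a difference of 0.46 with a gap between the groups. At 0.5 mGy/h exposed libraries ran from 92.8 over 104 to 118 CPM and controls from 77.3 over 87.2 to 96.7 CPM. At 0.05 mGy/h they had 137, 126, 112 and 103 CPM against 115, 112, 104 and 90.2 CPM. The groups overlapped in these batches and in the lowest one, where exposed libraries had 96.9, 87.3 and 67.3 CPM and controls 93.3, 72.1, 71.1 and 69.8 CPM.

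**Figure D4:**
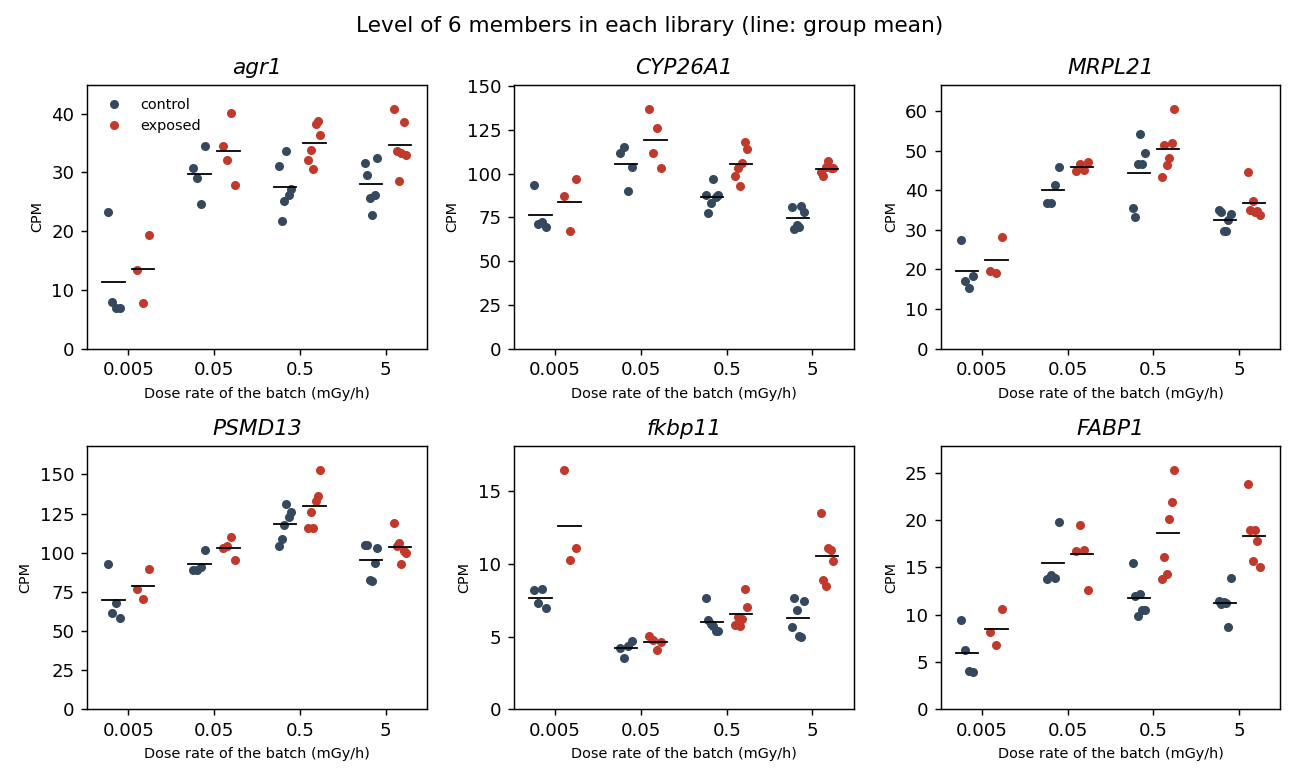
Level in CPM (vertical axes, from 0) of 6 members in each library by the dose rate of the batch in mGy/h (horizontal axes). Dark points are controls, red points exposed libraries, and lines group means. Exposed points are clear of the controls for CYP26A1 and FABP1 at 5 mGy/h and for fkbp11 at 0.005 and 5 mGy/h, and mix with them for PSMD13 at every dose rate.

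Wnt signals are received by LRP6 together with Frizzled and read out by TCF7 on DNA. TCF7 had 12.5 CPM as its highest and 9.89 CPM as its lowest exposed value at 5 mGy/h (median 12.1), and its controls ran from 6.14 over 8.21 to 9.08 CPM. LRP6, at 115 CPM in controls, had its largest difference at 0.005 mGy/h (0.57) and 0.07 to 0.28 elsewhere. The secreted Nodal antagonist lft2 was apart at 5 mGy/h, with exposed libraries from 19.8 over 21.5 to 28.2 CPM and controls from 14.6 over 16.7 to 19.4 CPM.

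At the other dose rates lft2 differed by 0.06 to 0.09. The peptide hormone apela, a ligand of the apelin receptor that acts on endoderm and mesoderm, had differences of 0.16, 0.11, 0.07 and 0.07. Medians over the 8 patterning genes were 0.19, 0.10, 0.16 and 0.35 from the lowest to the highest dose rate. Of the 68 genes kept in a list of gastrula transcription factors, 1 was a member, FOXK2 (1.47%, where 1.72% of all genes kept were). Of 22 genes of a list of signalling ligands and antagonists, 2 were members (9.09%). Of the 117 genes of that list of transcription factors tested at 5 mGy/h, edgeR called 5 higher and 1 lower. Over all 15015 genes tested there it called 53 higher (0.353%) and 27 lower. At the other dose rates it called none of the list of transcription factors.

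GREB1, a cofactor of steroid receptors in mammals, was called higher at 5 mGy/h, where its exposed libraries ran from 29.1 over 32.5 to 35.3 CPM and its controls from 19.7 over 21.7 to 25.5 CPM. BHMT, which makes methionine from betaine, was apart at 2 dose rates. Its exposed libraries at 0.005 mGy/h had 135, 123 and 103 CPM and its controls 90.1, 84.3, 82.6 and 74.1 CPM. Exposed libraries at 5 mGy/h ran from 44.1 over 48.9 to 54.7 CPM and controls from 28.2 over 34.1 to 43.8 CPM. Its place near the end of the members came from 0.05 mGy/h, where the difference was 0.04 and the controls alone ran from 42.3 to 85.8 CPM.

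The ceramide desaturase degs1 was also apart at 0.005 mGy/h (242 ± 6.01 CPM against 224 ± 10.6 CPM, mean and SD, n = 3 and 4) and at 5 mGy/h (188 ± 26.1 CPM against 135 ± 11.6 CPM, n = 6 and 6). The keratin krt17 had differences of 0.27, 0.07, 0.04 and 0.46. Of 4 markers of the enveloping layer, the outer epithelium, 2, 1, 0 and 4 were higher in the mean from the lowest to the highest dose rate. Their summed level at 5 mGy/h was 3730 to 4480 CPM in exposed libraries and 3080 to 3790 CPM in controls. In the 0.5 mGy/h batch it was 3320 to 3850 CPM and 3870 to 4640 CPM, at 0.05 mGy/h 4470 to 5120 CPM and 4180 to 5620 CPM, and at 0.005 mGy/h 6680 to 7650 CPM and 6710 to 7810 CPM. The keratin and this sum were both higher at the highest dose rate. At the other dose rates krt17 was higher but the median of the sum was lower in exposed libraries. It was 7410 against 7560 CPM at 0.005 mGy/h, 4710 against 4830 CPM at 0.05 mGy/h and 3570 against 3910 CPM at 0.5 mGy/h. The part of the layer in the result was not tested.

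**Figure D5:**
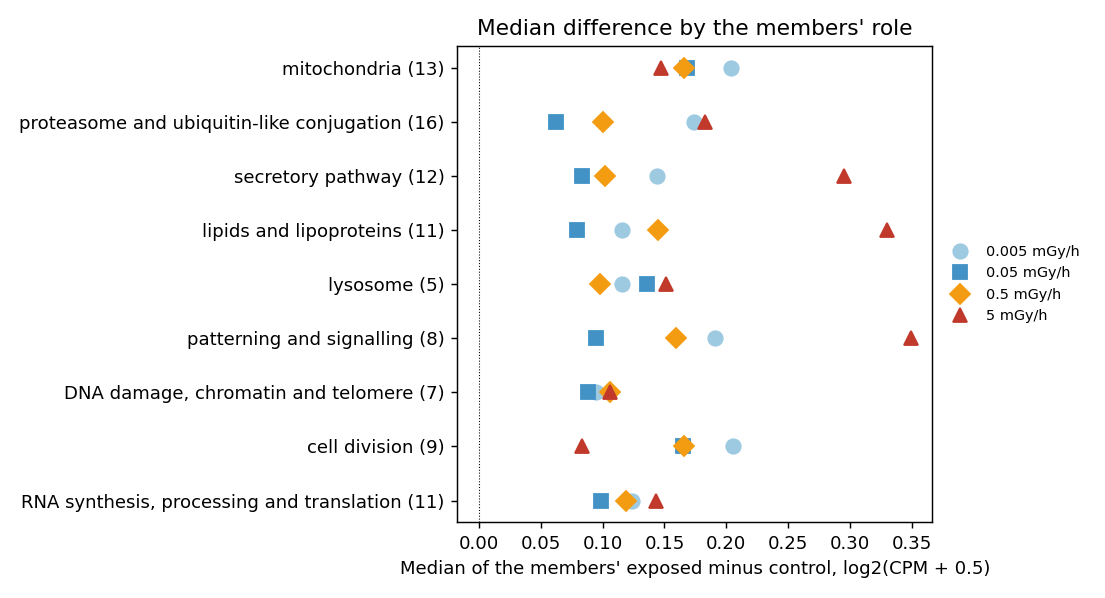
Median exposed minus control on the log2(CPM + 0.5) scale (horizontal axis) over the members of each role (vertical axis, number of genes in parentheses), with a mark for every dose rate. Secretion, lipids and patterning have their largest medians at 5 mGy/h (0.30, 0.33 and 0.35), and cell division has its smallest there (0.08). The medians are on gene totals, and their order over the dose rates may change with TMM sizes.

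A group of 7 members, put together after their values were seen, acts on DNA damage, chromatin or telomeres. The ubiquitin ligase rnf8 and ABRAXAS1 of the BRCA1 complex act at breaks, SIRT6 and kat5a modify histones there, BCCIP binds BRCA2, tinf2 belongs to the cap of telomeres and ING2 binds methylated histone H3. Medians over the 7 genes were 0.09, 0.09, 0.11 and 0.11, and exposed and control libraries overlapped for each of them at every dose rate. Exposed libraries lay wholly above controls for 2.73%, 0.276%, 4.66% and 2.47% of all genes kept. At these shares 7 genes could hold none. For rnf8 exposed libraries ran from 26.9 over 28.4 to 31.6 CPM and controls from 20.6 over 25.3 to 27.6 CPM at 5 mGy/h. At 0.005 mGy/h its exposed libraries had 35.2, 27.0 and 22.7 CPM and its controls 37.3, 21.5, 21.3 and 20.5 CPM. The highest value of that batch was in a control, replicate 1. ABRAXAS1 had 13.8% of its reads on the other strand.

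None of the 13 genes kept in a list of genes switched on after DNA damage was a member, and none was higher in the mean at every dose rate. The same held for the 17 genes of a list of the double-strand break response. With 1.72% of all genes kept being members and 4.25% higher in the mean at every dose rate, lists of this size could hold none at the background shares. Of 17 antioxidant genes, TXN2 alone was higher in the mean at every dose rate (5.88%, near the 4.25% of all genes kept). No gene of the 3 lists was called by edgeR at any dose rate. Over all genes it called 62 of 14906 at 0.5 mGy/h, 80 of 15015 at 5 mGy/h and 0 at the lower dose rates. Lists of this size could hold none at such shares. For mdm2 the differences were -0.29, 0.14, 0.04 and -0.21, and for CCNG1 0.05, 0.16, 0.03 and -0.08. The cell cycle inhibitor cdkn1a had 1.88 CPM in controls, below the filter, and 1.44 CPM in exposed libraries.

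Cell division is served by 9 members, among them ANAPC13 and ANAPC15 of the anaphase-promoting complex, spc24 and CENPX of the kinetochore, cdca8 of the chromosomal passenger complex, HAUS1 and CEP152 of spindle poles and centrioles, GINS3 of the replication helicase and pclaf, which binds the replication clamp. Medians over the 9 genes were 0.20, 0.16, 0.17 and 0.08 from the lowest to the highest dose rate. Exposed libraries were free of overlap with controls for 1 of them, at 0.05 mGy/h, where 0.276% of all genes kept were. The 11 members of RNA synthesis, processing and translation, such as POLR2C and POLR2K of RNA polymerase II, smn1 of spliceosome assembly and EIF3K and EIF2S1 of translation initiation, had medians of 0.12, 0.10, 0.12 and 0.14. Of 28 RNA polymerase genes kept, 2 were members (7.14%), and of 68 translation factors 2 were (2.94%). From the lowest to the highest dose rate the polymerase list had medians of -0.049, 0.052, 0.055 and -0.028. Translation factors had -0.083, 0.021, -0.014 and 0.020. No gene of the 58 kept in a list of splicing factors and none of 36 in a list of ribosome biogenesis was a member. Such lists could hold none at the background share of 1.72%.

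Several other members cannot be grouped by a shared process. Among the 12 with the widest margins, ugt1b7 is a glucuronosyltransferase, whose family adds sugar acids to small molecules, and had differences of 0.16 to 0.27. DHRS13, a dehydrogenase, had 0.15 to 0.44. The gene ENSDARG00000097082 had no overlap at 0.005 mGy/h, with 9.16, 7.67 and 7.63 CPM in exposed libraries and 5.56, 5.13, 4.78 and 4.40 CPM in controls, and 0.12 to 0.15 at the other dose rates. Urate oxidase, uox, was apart at 0.5 mGy/h, where exposed libraries ran from 28.9 over 37.9 to 43.1 CPM and controls from 13.2 over 22.7 to 28.1 CPM. At 5 mGy/h uox differed by 0.07.

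A further description is how members vary among libraries of the same group. After the mean of its group was taken from each library, 142 of the 150 genes varied in the same direction as the mean of the other members (r above 0), with a median r of 0.56 over 39 libraries. For the 8554 other genes kept, the median r with the members' mean was 0.07. An r above 0.5 was found for 62.7% of members and 12.8% of other genes. These deviations come from the same libraries as the rule, so the higher r of members can follow in part from the choice.

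Proteasome genes that are not members (38 genes) followed the members' mean from library to library with r = 0.85 (rho = 0.83), and r = 0.81 without the 2 libraries farthest from their median. Within the batches r was 0.99, 0.69, 0.74 and 0.78 from the lowest to the highest dose rate. For 56 mitochondrial ribosomal protein genes that are not members r was 0.82 (rho = 0.74), and 0.71 without the 2 farthest libraries. Within batches it was 0.95, 0.70, 0.63 and 0.74. For 88 cytosolic ribosomal protein genes r was 0.52, and within batches 0.65, 0.44, 0.77 and 0.71. For 91 genes of the respiratory chain it was 0.39, and within batches 0.38, 0.27, 0.73 and 0.64. The count on genes, as its log10, gave r = 0.04, the multimapped share 0.09 and the share of reads in no gene -0.25. Libraries in which the members were high, control or exposed, were thus also high in proteasome and mitochondrial ribosomal protein RNA, and within each batch r was above 0 for all 4 of these lists. All points share the CPM scale, on which genes of one library sum to the same total.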

How the data were processed

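RNA of entire embryos was sequenced as stranded mRNA libraries. For each library the authors deposited the counts that STAR gave per gene on GRCz11, unnormalised, on either strand and on each strand. The column for the reverse strand of first reads was used, as the other strand took at most 2.09%. Reads in no gene (5.14% to 9.88% of uniquely mapped ones) were left out. Symbols were matched for 28988 of 32057 genes, without regard to case.

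The members, lists and tests were chosen with earlier results of these data known. DEG came from edgeR 4.0.16 (R 4.3.3, TMM, default filter, two-sided quasi-likelihood test, one batch per fit, Benjamini-Hochberg), checked on simulated counts. Replicates differed by more than counting noise, and p-values measure only the spread between these pools. Genes named are the 12 with the largest smallest difference, up to 3 per list of families, those next to the edge of the choice, and mdm2, cdkn1a and ccng1. Some genes that this choice names are not reported here. Other genes were named after their values were seen, as were the role groups. Alternatives were TMM sizes, other pseudocounts and CPM filters, the 31 libraries of the study, either strand, symbols dropped otherwise, totals less ribosomal protein genes, medians, DESeq2 1.42.0, RLE, no filter, a replicate block, an adjusted p under 0.05 and each library left out. Gene lengths, positions and promoters were not analysed here. Nor was a dose rate of the study above these.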

Additional observations from a re-analysis of the deposited data

Results flagged for a closer look

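For 14 measures, 98 groups of 4 to 6 libraries were examined at their highest and lowest values. Of these values 9 were far from the rest by Dixon's criterion, which chance meets in about 1 group in 20. Control replicate 1 of the 0.005 mGy/h batch accounts for 3 of them, with agr1 at 23.3 CPM against 6.96 to 7.91 CPM in the other controls, CYP26A1 at 93.3 CPM against 69.8 to 72.1 CPM, and rnf8 at 37.3 CPM against 20.5 to 21.5 CPM. Exposed replicate 3 at 0.05 mGy/h had 35.7% of its reads mapped to several places against 15.3% to 16.8%. PSMD13 was at 102 CPM in control replicate 4 of that batch against 88.9 to 90.8 CPM. In the 5 mGy/h batch, MRPL21 was at 44.6 CPM in exposed replicate 1 against 33.8 to 37.3 CPM, NIPSNAP1 at 70.7 CPM in control replicate 1 against 57.0 to 61.7 CPM, and ifi30a at 136 CPM in control replicate 2 against 107 to 117 CPM. At 0.5 mGy/h ifi30a was at 207 CPM in exposed replicate 6 against 143 to 165 CPM.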

How the results depend on the processing

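Of the 150 members, 76 were chosen again with TMM-scaled library sizes, 91 with a filter of 1 CPM, 85 with 20 CPM, 78 over the 31 libraries of the study and 82 with group medians. With single libraries left out, 95 to 145 were chosen again, the fewest without exposed replicate 4 (95) or 3 (99) at 0.005 mGy/h, and 100 to 150 of the 150 remained higher at every dose rate. In the batch left out of the choice, the count higher went from 55 to 126 at 0.005 mGy/h, 78 to 114 at 0.05 mGy/h, 42 to 75 at 0.5 mGy/h and 32 to 92 at 5 mGy/h, and the 31 libraries gave 125, 124, 85 and 121.

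DEG in either direction numbered 0, 0, 62 and 80 from the lowest to the highest dose rate, with 4 members called higher. Of all genes tested, 0.0%, 0.0%, 0.416% and 0.353% were called higher. With an adjusted p under 0.05, the numbers were 0, 1, 482 and 381, and 10 members. Over the 31 libraries, they were 0, 0, 356 and 1158, and 29 members. DESeq2 gave 38, 2, 373 and 265 DEG and 13 members, where 0.167%, 0.0%, 2.69% and 1.27% of genes tested were called higher. No filter on low counts gave 9, 1, 229 and 142 DEG and 8 members. In these fits 228 of 25013 genes tested were called higher at 0.5 mGy/h and 83 of 25220 at 5 mGy/h. With single libraries left out, DEG numbered 0 to 26 at 0.005 mGy/h (26 without control replicate 1), 0 to 1, 2 to 340 (340 without exposed replicate 3 at 0.5 mGy/h) and 12 to 250 (250 without control replicate 2 at 5 mGy/h), and members 0 to 9. The cause was not tested.

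Correlations of deviations of same-numbered libraries went from -0.35 to 0.35, which does not settle whether replicate numbers pair the libraries. They were not used as pairs in the main fits. With the replicate block there were 120, 0, 390 and 7 DEG, with 4 members. It called 33 of 13806 genes tested higher at 0.005 mGy/h, 387 of 14906 at 0.5 mGy/h and 7 of 15015 at 5 mGy/h. Over 34 named members, 1 of 136 differences changed sign with TMM sizes, 1 over the 31 libraries, and 36 of 1326 with single libraries left out. These named members include those with the largest margins. Of all 150 members, 150, 128, 149 and 145 were above 0 over the 31 libraries, from the lowest to the highest dose rate. Not all members were thus higher at every dose rate there. Members free of overlap, chosen for repetition after seeing the data, numbered 45, 5, 2 and 23 with TMM sizes (6.23%, 0.368%, 3.55% and 3.45% of all genes) and 15, 49, 19 and 57 over the 31 libraries, where 2.73%, 6.64%, 7.3% and 10.8% of all genes were.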
